A study of Mus musculus with 6 samples.

Results

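RNA-seq libraries of mouse bone marrow cells after 7 days of culture were compared with libraries of fresh marrow at day 0. The comparison used 4 of the 6 libraries of the study, 2 a side. The day 0 libraries, numbered II and III, were made from uncultured marrow cells of male C57BL/6J mice, with no allele or agent named. The day 7 libraries, numbered III and IV, came from male C57BL/6J marrow grown with Flt3L, supplied as the supernatant of a transfected SP2/0 line, and are titled bone marrow derived dendritic cells (BMDC). They were made from every live cell of the culture, with no sort for a cell type. The 2 day 4 libraries, titled CMP and numbered I and II, entered the fit only for its estimate of spread. The number of mice, their age and whether libraries of 1 day came from separate animals or cultures are not stated in the labels, so the p-values measure the spread between these libraries, which may be technical.

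Fresh bone marrow is a mixture dominated by maturing neutrophils and red cell precursors, with smaller numbers of B cells, monocytes, stem cells and stroma. Flt3 ligand, the ligand of the receptor tyrosine kinase Flt3, drives marrow progenitors toward plasmacytoid dendritic cells (DC) and 2 kinds of conventional DC, cells specialised in taking up antigen and showing it to T cells on MHC class II. Macrophages, which share many genes with DC, are the body's main scavengers and carry large lysosomal compartments that break down engulfed protein and lipid.

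The deposited values were RPKM, reads scaled by exon length and by the library's total. Whole reads could be read back from them. The day 0 libraries held 322837 and 157797 reads in genes, and the day 7 libraries held 16149088 and 10951745. Day 0 was thus the limit on precision: 3 reads of a gene 1 kb long equalled 9.29 and 19.01 RPKM on day 0 but 0.186 and 0.274 RPKM on day 7. A gene was tested when its mean over the 4 libraries reached the RPKM that 3 of its reads were worth in day 0 library III, called the floor. Of 21761 genes, 8047 were tested. Genes low on 1 of the 2 days passed only when they were high on the other, which also fixed their direction, so the counts for gene groups below describe the members that passed and say nothing on the rest.

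The day 0 libraries also held a low signal in genes that blood cells are not known to use. The 186 genes of 6 such families (beta-defensins, keratin-associated proteins, major urinary proteins, prolactins, pregnancy-specific glycoproteins and bitter taste receptors) had a pooled level of 4.60 and 4.97 RPKM on day 0, against 0.00486 and 0.0113 on day 7. Spread evenly over the length of all genes, that level would amount to 35.2% and 38.1% of the day 0 reads in genes. Its origin was not tested. Counts of calls are therefore also given after this level was taken off every gene and the rest rescaled, a step chosen after seeing the data and called background subtraction below. It moved the median log2 difference of all tested genes from -0.01 to 0.48. Replicates matched closely at day 7, where 4.65% of tested genes differed more than 2-fold between libraries, and less so at day 0, where 27.8% did.

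Gene expression differed widely between the 2 days. Of the 8047 tested genes, 2105 (26.2%) were higher at day 7 and 1893 (23.5%) were lower, by limma on log2(RPKM + 1) with Benjamini-Hochberg adjustment at adjusted p under 0.05. The 2 libraries of each day did not overlap with those of the other day for any called gene, nor for 77.5% of all tested genes. The median size of the difference was 2.30 among the higher and 2.18 among the lower genes on the log2 scale. After background subtraction 1719 genes (21.4%) were higher and 808 (10%) were lower, with 1377 of the higher and 768 of the lower genes called as before. With the level of 1455 sensory receptor genes as the background instead, 1671 (20.8%) were higher and 909 (11.3%) were lower. This level, 3.28 and 4.51 RPKM on day 0, left out Olfr856-ps1, Olfr613 and Vmn1r58, which held the most reads. With them included it was 8.74 and 8.26 RPKM, and no fit was made with that higher level. Genes lower at day 7 were long, with a median length of 6049 bases against 2042 bases for the higher ones. The number of lower calls is therefore the less firm of the 2 counts, while the losses described below mostly lie far above the background.

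**Figure D1:**
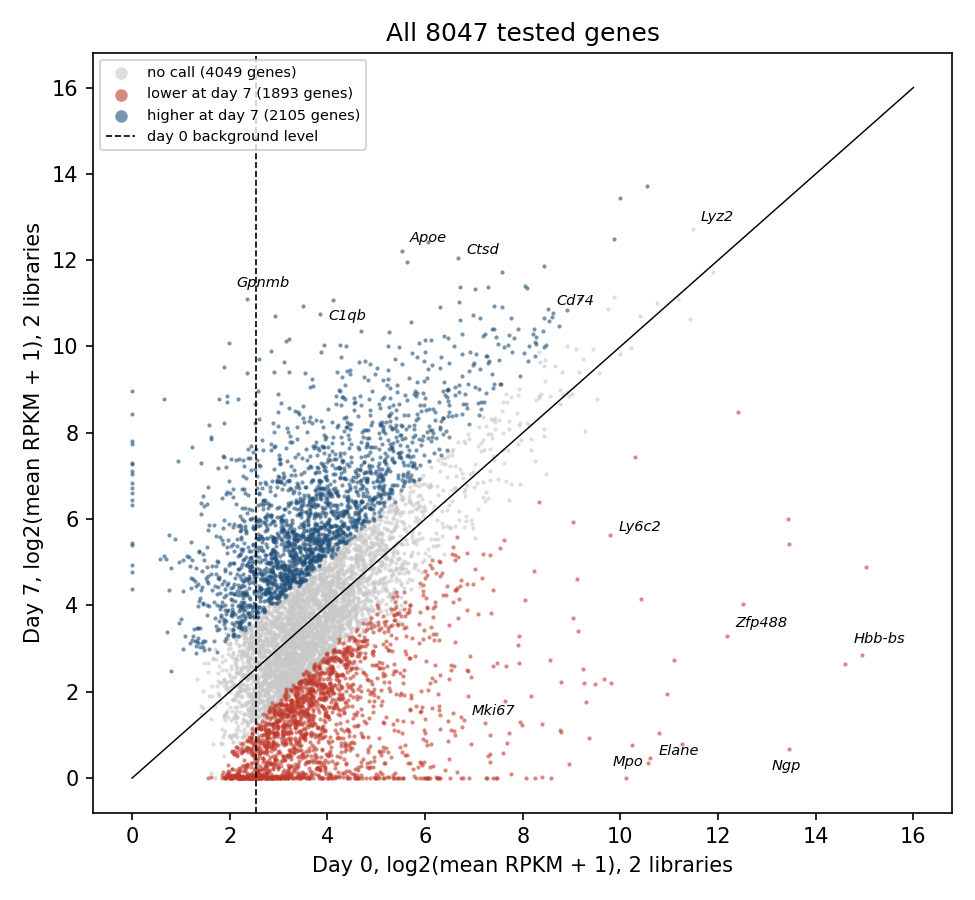
Mean level of each of the 8047 tested genes at day 0 (horizontal) and day 7 (vertical), both as log2(RPKM + 1) over 2 libraries; colours show calls at adjusted p under 0.05, the solid line equal levels and the dashed line the mean day 0 background of 4.79 RPKM. Globin and granule genes lie at the lower right, and scavenger and lysosomal genes at the upper left.

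The label of the day 7 cells was checked against DC markers. Zbtb46, the transcription factor that sets conventional DC apart from other myeloid cells, stood at 2.400 and 4.91 RPKM on day 0 and 0.0288 and 0.0283 RPKM on day 7, from 3 and 2 reads in the deep day 7 libraries, and did not reach the floor. The type 1 DC markers Xcr1 (a chemokine receptor) and Clec9a (a receptor for dead cells) were at 0.528 and 0 RPKM and 0.703 and 0 RPKM at day 7, and the type 1 factor Batf3 was at 3.75 and 6.28 RPKM. The type 2 factor Irf4 was at 0.0128 and 0.3596 RPKM. All 4 of these genes were also under the floor and were not tested. At day 7 Zbtb46, Xcr1, Clec9a and Irf4 were below 1 RPKM in both libraries, while Batf3 had 74 and 84 reads. For plasmacytoid DC, the lectin Siglech was at 2.903 and 0 RPKM on day 0 and 5.44 and 8.22 RPKM on day 7, and the homing receptor Ccr9 was at 0.334 and 0.335 RPKM at day 7. Siglech was higher in both day 7 libraries than in both day 0 libraries, but it too was under the floor and was not tested.

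Other genes used to recognise DC were present at day 7. Itgax, which codes for CD11c, stood at 4.16 and 0 RPKM on day 0 and 24.7 and 25.9 RPKM on day 7, and rose (log2 difference 3.53 ± 0.74 SE, limma adjusted p = 0.00388). Tcf4, the master factor of plasmacytoid DC, was at 4.09 and 8.37 RPKM and 8.69 and 8.02 RPKM and was not called (limma adjusted p = 0.450). Flt3, the receptor for the cytokine in the culture, was at 6.78 and 17.3 RPKM on day 0 and 1.22 and 1.97 RPKM on day 7. The 2 days did not overlap and Flt3 fell (log2 difference -2.22 ± 0.59 SE, limma adjusted p = 0.0125), but the call was lost after background subtraction (limma adjusted p = 0.158) and without day 0 library III (0.0620), day 7 library III (0.0843) or day 7 library IV (0.0530). Irf8, a factor of type 1 and plasmacytoid DC, was at 14.9 and 15.2 RPKM on day 0 and 38.8 and 35.6 RPKM on day 7 and rose (limma adjusted p = 0.0254), a call likewise lost after background subtraction (limma adjusted p = 0.0754) and without day 7 library III (0.154) or IV (0.130).

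Of the 18 genes listed for conventional DC, 10 were tested, with 3 higher and 4 lower at day 7 (3 and 3 after background subtraction), against 26.2% and 23.5% of all tested genes. The 16 type 1 genes gave 8 tested, 4 higher and 2 lower (3 and 2), and the 13 type 2 genes gave 7 tested, 2 higher and 2 lower (1 and 2). Of 18 plasmacytoid DC genes 8 were tested, with 6 higher and none lower (4 and 0). The 2 type 1 members that fell were surface proteins of type 1 DC that other marrow cells also carry. Cd24a, also abundant on red cell and neutrophil precursors, was at 442 and 443 RPKM on day 0 and 1.81 and 0.352 RPKM on day 7. Ly75, the endocytic receptor DEC-205, had 19 and 9 reads at day 0 (10.03 and 9.72 RPKM) and no read at day 7, at least 212-fold lower. The type 2 marker Sirpa, a "do not eat me" receptor of myeloid cells, was at 35.4 and 72.5 RPKM on day 0 and 274 and 272 RPKM on day 7 and rose (5.06-fold, limma adjusted p = 0.00320, but 0.310 with quantile normalization), and the helix-loop-helix factor Id2, needed for type 1 DC and present in macrophages too, rose from 87.7 and 14.9 RPKM to 1584 and 1438 RPKM. The 3 conventional DC lists thus had members called in both directions. In bulk RNA, fewer cells of a type and less RNA per cell cannot be told apart.

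**Figure D2:**
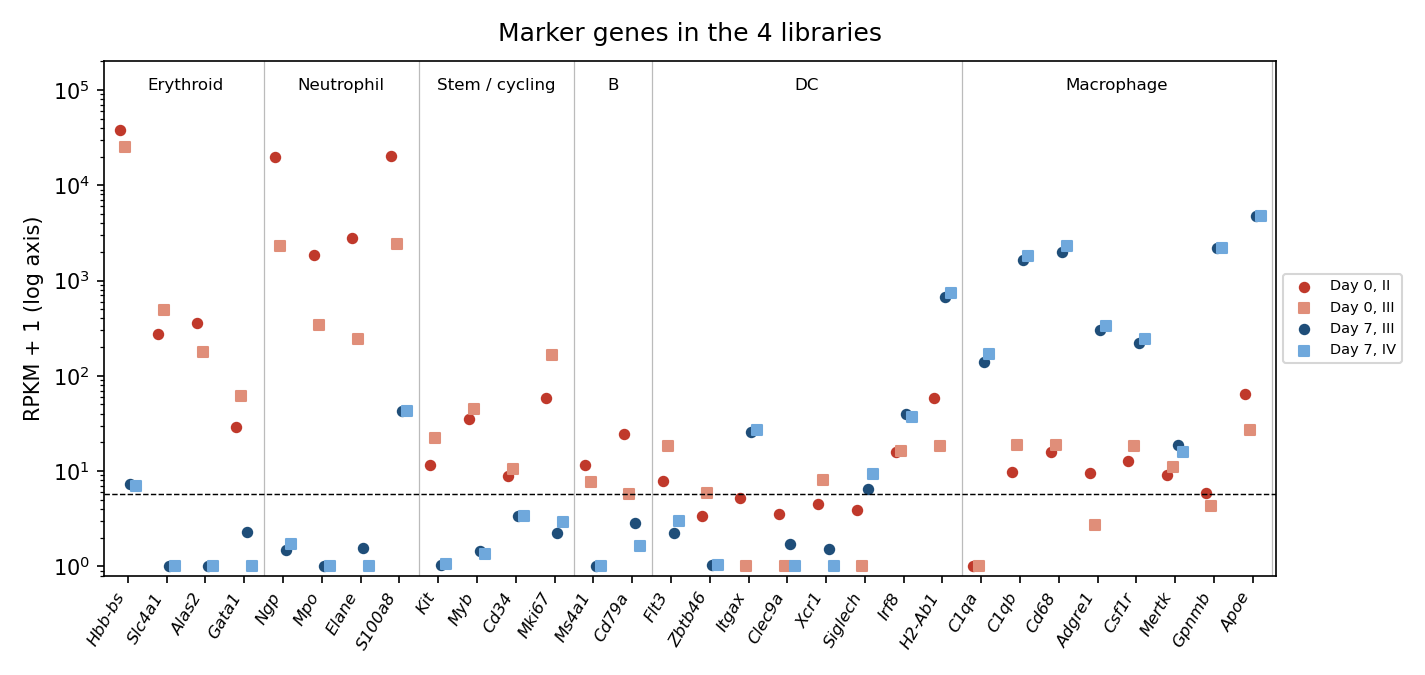
Level of marker genes in each of the 4 libraries, as RPKM + 1 on a log axis; circles and squares are the 2 libraries of a day, red for day 0 and blue for day 7, and the dashed line is the mean day 0 background. Red cell and neutrophil markers drop toward 1 (0 RPKM) at day 7, and most macrophage markers lie far above their day 0 levels. DC markers split: Zbtb46, Xcr1 and Clec9a stay near the bottom and Flt3 drops. Itgax, Siglech, Irf8 and H2-Ab1 lie above their day 0 levels.

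Red cell genes were nearly absent at day 7. All 20 tested genes of the 21 listed for globins and the red cell membrane were lower at day 7, 19 of them also after background subtraction, with a median log2 difference of -5.89 against -0.01 over all tested genes. Together they took 8.01% and 4.25% of the reads at day 0 and 0.00673% and 0.0103% at day 7. Hbb-bs, an adult beta globin, stood at 37602 and 25408 RPKM on day 0 and 6.396 and 6.002 RPKM on day 7, 5083-fold lower (log2 difference -12.07 ± 0.59 SE, limma adjusted p = 5.28e-06). The other globins followed: Hbb-b1 was at 30798 and 18750.2 RPKM and then 3.44 and 6.96 RPKM, and Hba-a2 at 47070.5 and 19527 RPKM and then 19.7 and 37.3 RPKM. Reads may have been split among near-identical globin copies, so the value of a single copy is uncertain, while the drop held for each of them. The remnant at day 7 was small but above 0, at 66 and 42 reads for Hbb-bs.

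Most genes of heme synthesis and erythroid regulation fell as well, along with those of the membrane. Slc4a1, the band 3 anion exchanger of the red cell membrane, went from 274 and 493 RPKM to no read in either day 7 library, at least 6373-fold lower (limma adjusted p = 5.28e-06; the floor for a fold against 0 is 3 reads in the shallower library of that day, and fitted log2 differences of such genes depend on the added constant). Of the 21 genes listed for heme synthesis and erythroid regulation 18 were tested, and 15 fell and 1 rose (12 and 0 after background subtraction). Alas2, which starts heme synthesis in red cells, was at 358 and 179 RPKM and then at 0 reads, at least 2017-fold lower. Gata1, the master regulator of red cells, was at 27.7 and 59.97 RPKM on day 0 and 1.302 and 0 RPKM on day 7. Nfe2, another factor on the list, fell 35.6-fold, from 63.1 and 41.8 RPKM to 1.41 and 1.53 RPKM. The 1 member that rose was Lmo2, an adaptor that works in stem and endothelial cells as well (28.2 and 34.6 RPKM, then 112 and 122 RPKM, limma adjusted p = 0.00868); its call was lost after background subtraction (limma adjusted p = 0.0653) and without day 7 library III (0.0535) or IV (0.0720).

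Promoters of these genes are shown because the genes fell together and GATA1 binds the letters AGATAA. In RefSeq promoters of build GRCm38.p6, 250 bases before to 50 after each start, 29 of the 42 listed red cell genes had an entry and 9 (31.0%) held AGATAA or its complement TTATCT on either strand, against 10.9% of the 16524 genes with an entry and 7.68% of the tested ones. Of those 9 genes, 8 were lower at day 7 and 1 was under the floor; of all tested red cell genes, with or without the motif, 35 of 38 were lower. The promoters of Alas2 (chrX:150547167-150547466, plus strand) and Epor (chr9:21963527-21963826, minus strand) follow, with the matches in capitals, 86 and 54 bases upstream of the start.
Alas2: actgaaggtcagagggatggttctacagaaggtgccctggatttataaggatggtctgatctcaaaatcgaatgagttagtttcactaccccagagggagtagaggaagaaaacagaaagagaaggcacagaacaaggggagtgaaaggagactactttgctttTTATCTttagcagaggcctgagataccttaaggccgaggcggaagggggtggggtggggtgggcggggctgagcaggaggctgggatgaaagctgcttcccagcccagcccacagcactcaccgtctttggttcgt
Epor: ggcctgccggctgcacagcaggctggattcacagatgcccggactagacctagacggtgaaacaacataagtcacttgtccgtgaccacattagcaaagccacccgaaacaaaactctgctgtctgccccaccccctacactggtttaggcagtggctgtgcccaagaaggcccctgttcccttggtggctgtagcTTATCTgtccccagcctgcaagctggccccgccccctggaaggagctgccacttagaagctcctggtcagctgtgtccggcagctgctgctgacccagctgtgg
Both match as TTATCT, the complement. Epor, the erythropoietin receptor, was at 18.1 and 21.6 RPKM on day 0 and 0.543 and 0 RPKM on day 7 and fell 73.1-fold (limma adjusted p = 1.86e-04). A match is a description of the letters only.

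Neutrophil granule genes also fell to near 0. All 5 tested primary granule genes of 6 were lower at day 7, and all 5 remained so after background subtraction. Mpo, the peroxidase that makes hypochlorous acid, was at 1860.2 and 339 RPKM at day 0 and had no read at day 7, at least 10218-fold lower (limma adjusted p = 1.98e-05). Elane, neutrophil elastase, was at 2774 and 241 RPKM and then 0.538 and 0 RPKM, and the sister proteases Prtn3 and Ctsg went to no read from 504 and 103 RPKM and 136 and 12.6 RPKM. In each of these 4 genes day 0 library II stood several-fold above library III, and both lay far above day 7.

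Of the 16 genes of the secondary and tertiary granules, made later in neutrophil development, 15 were tested, with 12 lower and 1 higher at day 7, and the same counts after background subtraction. Ngp, a neutrophil granule protein, showed the second largest fall of the rule-named genes, from 19983 and 2325 RPKM to 0.4800 and 0.708 RPKM (log2 difference -12.07 ± 0.88 SE, limma adjusted p = 2.25e-05). Ltf, lactoferrin, was at 2337 and 779 RPKM and then 0.429 and 0.333 RPKM. Camp, the antimicrobial cathelicidin, was at 4711 and 212 RPKM and then 1.45 and 0 RPKM, and the iron-chelator binding protein Lcn2 was at 3181 and 773 RPKM and then 5.299 and 0.428 RPKM. These genes were again higher in day 0 library II than in III. Cebpe, the transcription factor that late granule genes need, went from 80.1 and 51.2 RPKM to no read, at least 297-fold lower.

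Genes of mature neutrophils were more mixed: of 21 listed, 13 were tested, 7 fell and 2 rose (8 and 1 after background subtraction). S100a8 and S100a9, the chains of calprotectin, fell from 20102 and 2409 RPKM to 42.02 and 41.7 RPKM and from 10502 and 1174 RPKM to 17.9 and 12.7 RPKM, so that a low level was left. Cxcr2, the receptor for neutrophil-attracting chemokines, was at 171 and 87.5 RPKM and then 21.1 and 34.6 RPKM and fell 4.64-fold (limma adjusted p = 0.0109, but 0.110 without day 7 library III). The 2 members that rose are also genes of macrophages: Clec4d, a C-type lectin for mycobacterial lipid, went from 20.4 and 18.9 RPKM to 561 and 541 RPKM (limma adjusted p = 1.16e-04), and Alox5ap, which helps make leukotrienes, from 254 and 44.5 RPKM to 1211 and 1288 RPKM (limma adjusted p = 0.00490, 0.0532 after background subtraction).

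Stem and progenitor genes split. Of 21 listed, 9 were tested, 5 fell and 4 rose, and 3 and 3 were left after background subtraction. Kit, the stem cell factor receptor, stood at 10.6 and 21.02 RPKM on day 0 and 0.0411 and 0.0505 RPKM on day 7 (346-fold lower, limma adjusted p = 3.94e-04). Myb, a factor that keeps progenitors dividing, was at 33.9 and 43.4 RPKM and then 0.438 and 0.354 RPKM, 97.6-fold lower. Cd34 was at 7.79 and 9.56 RPKM and then 2.397 and 2.36 RPKM and fell (limma adjusted p = 0.0201), a call lost after background subtraction (0.215) and without day 7 library III (0.105) or IV (0.117). The members that rose besides Lmo2 are not limited to stem cells. Ly6a, the interferon-inducible Sca-1, had 6 and 0 reads at day 0 and stood at 333 and 355 RPKM at day 7 against 19.3 and 0 RPKM, and Cd48, an adhesion protein of most leukocytes, rose 7.905-fold. Procr, the protein C receptor, had no read at day 0 and 51.9 and 30.5 RPKM at day 7, at least 5.904-fold higher.

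Most listed genes of lymphocytes and of several other lineages were under the floor and were not tested. Only 6 of 22 B lineage genes and 3 of 26 T and NK cell genes were tested, with 2 higher and 3 lower (3 and 0 after background subtraction) and 2 higher and 1 lower (1 and 1), and the defining genes Cd79a and Cd3e were under the floor. Ms4a1, the B cell protein CD20, had 16 and 5 reads at day 0 and none at day 7, at least 148-fold lower (limma adjusted p = 0.00217, 0.0550 after background subtraction). Nkg7, a granule protein of killer cells, went from 91.4 and 38.97 RPKM to no read, at least 194-fold lower. Some listed genes rose while defining genes of their lineage were under the floor: Il7r, the interleukin 7 receptor chain, went from 3.51 and 1.44 RPKM to 57.6 and 35.8 RPKM and the adaptor Blnk from 5.72 and 5.85 RPKM to 42.5 and 37.96 RPKM, and Pf4, a chemokine of platelets and of some macrophages, with 1 and 0 reads at day 0, rose from 5.27 and 0 RPKM to 199 and 153 RPKM (limma adjusted p = 0.00168, but 0.160 with voom on recovered reads) while the platelet integrin Itga2b stayed under the floor. Of the 19 genes of basophils, mast cells and eosinophils 4 were tested, with 3 lower and 1 higher, also after background subtraction. Prg2, the eosinophil major basic protein, was at 625 and 45.4 RPKM and then 2.66 and 0.109 RPKM, and Hdc, which makes histamine, went from 99.00 and 55.96 RPKM to no read, at least 673-fold lower. Of 18 stromal and endothelial genes 7 were tested and 6 fell, also after background subtraction; Col1a1, a collagen chain of fibroblasts and bone, was at 25.1 and 24.3 RPKM and then 0.8304 and 1.32 RPKM, 22.9-fold lower.

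Most tested genes of cell division fell. Of 38 genes of S phase 29 were tested, with 23 lower and 1 higher at day 7 (16 and 1 after background subtraction), and of 37 mitosis genes 35 were tested, with 28 lower and 1 higher (25 and 1). Tyms, which makes thymidylate, was at 357 and 220.1 RPKM on day 0 and 2.31 and 3.22 RPKM on day 7, 104-fold lower (limma adjusted p = 4.42e-05). Rrm2, a ribonucleotide reductase subunit, fell 39.6-fold, from 210.3 and 192 RPKM to 5.71 and 4.44 RPKM. Mki67, the Ki-67 proliferation marker, was at 56.9 and 162 RPKM and then 1.21 and 1.903 RPKM, and Ccna2, cyclin A2, at 62.8 and 87.9 RPKM and then 3.39 and 2.34 RPKM. Levels at day 7 were low but not 0, and the 2 days did not overlap for these 4 genes, as for 77.5% of all tested genes. Pcna, the replication clamp that repair also uses, was the S phase gene that rose, from 138 and 121 RPKM to 603 and 462 RPKM (limma adjusted p = 0.00706, 0.0778 without day 7 library III).

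Monocyte genes were called in both directions. All 21 listed were tested, with 7 higher and 8 lower (6 and 6 after background subtraction). Ly6c2, which marks classical monocytes and their precursors, was at 1218 and 546 RPKM on day 0 and 49.5 and 47.2 RPKM on day 7, 18.2-fold lower (limma adjusted p = 4.96e-04). F13a1, a coagulation factor chain, fell 33.2-fold, from 57.7 and 80.7 RPKM to 2.47 and 1.701 RPKM. Ccr2, the receptor by which monocytes leave the marrow, was at 36.6 and 79.5 RPKM and then 10.2 and 5.45 RPKM and fell (limma adjusted p = 0.00510, 0.0518 without day 7 library IV). Csf1r, the receptor for macrophage colony-stimulating factor, rose from 11.6 and 17.3 RPKM to 219 and 242 RPKM (15.9-fold, limma adjusted p = 1.60e-04). Cd14, the lipopolysaccharide co-receptor, stood at 14.5 and 0 RPKM and then 384 and 436 RPKM, with no overlap. Lyz2, lysozyme M of all these cells, was high on both days, 4195 and 1509 RPKM and 7224 and 6272 RPKM, and was not called (limma adjusted p = 0.249), while its neighbour Lyz1 rose 14.7-fold, from 120.0 and 45.1 RPKM to 834 and 1592 RPKM. The 2 lysozyme genes are alike in sequence and reads could be split between them.

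Most listed macrophage genes rose. Of 30, 22 were tested and 21 rose, with none lower (18 and 0 after background subtraction), while the other 8, such as the scavenger receptors Cd163 and Marco, were under the floor, and the list took 0.0864% and 0.133% of the reads at day 0 and 1.92% and 1.91% at day 7. The 3 chains of C1q, the complement component made by tissue macrophages, all rose. C1qa had no read at day 0 and 139 and 169.6 RPKM at day 7, at least 8.77-fold higher (limma adjusted p = 1.11e-05). C1qb went from 8.76 and 17.9 RPKM to 1634 and 1813 RPKM, and C1qc, with 2 and 0 reads at day 0, to 1031 and 1149 RPKM, a ratio of 273 (95% exact interval 75.6 to 2257) that covers counting error only. Cd68, the lysosomal protein used to stain macrophages, stood at 15.04 and 17.6 RPKM and then 2009 and 2306 RPKM (132-fold, limma adjusted p = 1.91e-05). Adgre1, the F4/80 antigen, was at 8.43 and 1.72 RPKM and then 304 and 329 RPKM, and Cd5l, a secreted protein of tissue macrophages, at 6.08 and 6.22 RPKM and then 963 and 952 RPKM. Day 0 and day 7 did not overlap for any of these, as for 77.5% of all tested genes. Mertk, a receptor for dying cells, was the tested member with no call (8.08 and 9.92 RPKM, then 17.6 and 14.8 RPKM, limma adjusted p = 0.245).

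**Figure D3:**
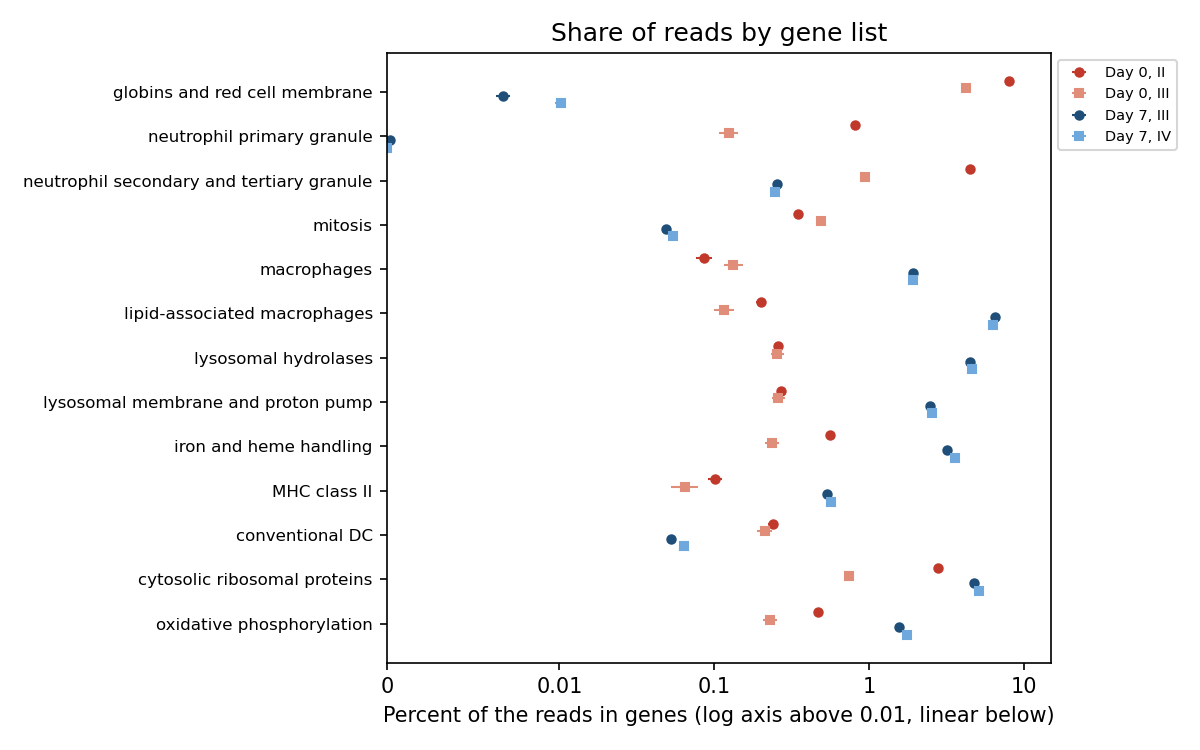
Share of the reads in genes that each gene list took in each library, with 95% exact binomial intervals for counting error; the axis is logarithmic above 0.01% and linear below. Red cell and neutrophil lists lose share from day 0 (red) to day 7 (blue), and the macrophage, lipid and lysosomal lists gain it to between 1.91% and 6.47%. The macrophage, lipid and lysosomal lists have members in common, so their shares are not separate.

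Genes of lipid-loaded macrophages rose as well. Of 23 listed, 21 were tested and 20 rose, with none lower and the same counts after background subtraction, at a median log2 difference of 4.81. The lists are not separate: Lipa, Ctsd, Ctsb, Ctsl, Cd63 and Atp6v0d2 are counted again on the lysosomal lists below. Cd68 likewise stands on both the macrophage and the lysosomal membrane list. Gpnmb, a membrane glycoprotein of macrophages under lysosomal load, stood at 4.89 and 3.34 RPKM on day 0 and 2198 and 2184 RPKM on day 7, 532-fold higher (log2 difference 8.76 ± 0.42 SE, limma adjusted p = 5.28e-06). Fabp5, a fatty acid carrier, had the largest log2 difference of the rule-named genes, 8.79 ± 0.95 SE, from 13.3 and 0 RPKM to 1804 and 1553 RPKM, but its day 0 value rested on 4 and 0 reads. Lpl, lipoprotein lipase, went from 2.36 and 3.01 RPKM to 803 and 664 RPKM (273-fold). Apoe, the lipoprotein that carries cholesterol out of macrophages, was among the most abundant genes at day 7, 4729.6 and 4795 RPKM against 63.7 and 26.1 RPKM at day 0. Ctsd and Lgals3, listed here as well, rose to 3967 and 4518 RPKM and 2666 and 2634 RPKM. For the carrier Fabp4, with 1 and 0 reads at day 0 and 469 and 408 RPKM at day 7, the ratio was 137 (95% exact interval 24.6 to 5409).

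Nearly all lysosomal genes rose. Of 41 hydrolases, all tested, 36 were higher and 1 lower at day 7 (34 and 0 after background subtraction), and of 30 genes of the lysosomal membrane and its proton pump, all tested, 28 were higher and none lower (23 and 0). The hydrolases took 0.2599% and 0.256% of the reads at day 0 and 4.48% and 4.63% at day 7. Cathepsin D (Ctsd), an aspartic protease, was at 137 and 64.6 RPKM and then 3967 and 4518 RPKM (42.1-fold, limma adjusted p = 2.43e-04). Cathepsin S (Ctss), which trims the MHC class II invariant chain, rose 81.3-fold, from 50.2 and 47.04 RPKM to 3842 and 4057 RPKM, and cathepsin B (Ctsb) 24.8-fold, from 109 and 48.2 RPKM to 1903 and 1983 RPKM. Lipa, the acid lipase that frees cholesterol from engulfed lipoprotein, rose 164-fold, from 8.06 and 2.06 RPKM to 838 and 823 RPKM. Both proteases and a lipase were thus among the genes that rose. Psap, which gives rise to the saposins that help break down sphingolipids, was already expressed at day 0 and rose 11.6-fold, from 162 and 177 RPKM to 1991 and 1937 RPKM.

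Of the proton pump, which acidifies the lysosome, the membrane subunits Atp6v0c and Atp6v0b rose from 175 and 82.5 RPKM to 2509 and 2642 RPKM and from 143 and 108 RPKM to 1593 and 1779 RPKM. Atp6v0e rose 41.1-fold, from 10.04 and 3.74 RPKM to 271 and 295 RPKM. Cd63, a tetraspanin of the lysosomal membrane, went from 174 and 30.7 RPKM to 2104 and 2058 RPKM, and Slc11a1, which pumps iron and manganese out of phagosomes, from 30.9 and 24.8 RPKM to 433 and 447 RPKM. Each of these 5 genes was called at a limma adjusted p of at most 0.00109.

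Promoters of lysosomal genes are shown because these genes rose together and some carry the E-box TCACGTG, the core of the site bound by TFEB and its relatives. Of the 71 listed genes, 56 had a RefSeq promoter of GRCm38.p6, and 15 (26.8%) held TCACGTG or its complement CACGTGA on either strand, against 5.26% of all 16524 genes with an entry and 7.998% of the tested ones. Of these 15 genes 14 were higher at day 7, as were 64 of all 71. A longer palindromic form of the site, which contains the shorter motif, was in 1 of the 56 (1.79%). It was in 0.514% of all genes and 0.996% of the tested ones. The promoters of Ctsd (chr7:142387778-142388077, minus strand), Atp6v0b (chr4:117887280-117887579, minus strand) and Lamp1 (chr8:13158911-13159210, plus strand) follow, with matches in capitals, which overlap where TCACGTGA is read on both strands. Lamp1 codes for an abundant glycoprotein of the lysosomal membrane and was chosen after its values and its 4 matches were seen.
Ctsd: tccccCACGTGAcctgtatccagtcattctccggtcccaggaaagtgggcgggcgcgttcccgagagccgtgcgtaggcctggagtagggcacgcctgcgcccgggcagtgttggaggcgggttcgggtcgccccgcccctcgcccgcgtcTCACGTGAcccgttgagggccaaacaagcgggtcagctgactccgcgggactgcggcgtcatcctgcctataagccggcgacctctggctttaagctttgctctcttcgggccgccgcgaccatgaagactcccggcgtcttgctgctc
Atp6v0b: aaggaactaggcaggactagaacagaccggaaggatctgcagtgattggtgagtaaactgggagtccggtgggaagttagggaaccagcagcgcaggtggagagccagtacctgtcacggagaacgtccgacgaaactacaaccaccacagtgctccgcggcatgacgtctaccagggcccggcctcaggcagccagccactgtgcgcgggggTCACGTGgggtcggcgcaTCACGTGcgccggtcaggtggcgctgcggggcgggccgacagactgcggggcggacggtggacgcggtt
Lamp1: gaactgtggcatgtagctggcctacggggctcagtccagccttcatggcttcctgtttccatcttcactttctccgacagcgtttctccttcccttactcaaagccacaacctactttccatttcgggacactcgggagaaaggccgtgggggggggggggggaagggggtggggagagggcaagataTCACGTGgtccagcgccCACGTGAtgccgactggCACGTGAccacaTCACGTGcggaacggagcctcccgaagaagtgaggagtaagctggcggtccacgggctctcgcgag
In Lamp1 the matches began 62, 45, 28 and 16 bases upstream of the start, and in Atp6v0b 37 and 19 bases upstream. Lamp1 itself stood at 72.98 and 50.7 RPKM on day 0 and 746 and 867 RPKM on day 7 (13.05-fold, limma adjusted p = 0.00149). For GAGGAAGT or its complement ACTTCCTC, letters bound by the myeloid factor PU.1, 2 of 21 macrophage genes with an entry (9.52%) had a match. The share was 3.65% over all genes and 4.29% over the tested ones. Here too, a match describes the letters only.

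Among genes of cholesterol handling, most of those for efflux and lipid transport rose, while most of those for synthesis were not called. Of 17 genes of efflux and lipid transport 16 were tested, with 12 higher and none lower (11 and 0 after background subtraction). Abca1, Mylip, Soat1 and Lpcat3 were not called. The list is not separate from those above: its higher members Lpl, Apoe, Apoc2, Abcg1, Cd36, Nr1h3, Npc1 and Npc2 also stand on the macrophage, lipid or lysosomal lists. Npc2, which hands cholesterol out of the lysosome, was at 20.9 and 31.1 RPKM on day 0 and 613 and 632 RPKM on day 7 (23.96-fold, limma adjusted p = 7.32e-05), and Cd36, the scavenger receptor for oxidised lipoprotein, rose 24.4-fold, from 19.2 and 18.2 RPKM to 475 and 437 RPKM. Of 22 synthesis genes 14 were tested, with 2 higher and 1 lower (2 and 0 after background subtraction). The members that rose were Ebp and Msmo1, both late steps, the former from 1.78 and 3.64 RPKM to 59.3 and 64.8 RPKM and the latter from 5.21 and 2.67 RPKM to 23.7 and 23.7 RPKM. The test of the difference between the 2 lists was not made.

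Iron storage and antioxidant genes were very abundant at day 7. Of 15 iron and heme genes 13 were tested, with 9 higher and 1 lower (6 and 0 after background subtraction). Hmox1, heme oxygenase 1, which breaks down heme from engulfed red cells, was at 15.7 and 32.2 RPKM and then 879.6 and 722 RPKM (33.4-fold, limma adjusted p = 4.32e-04). The ferritin chains Ftl1 and Fth1 stood at 2340.5 and 629.8 RPKM and 1653 and 369 RPKM at day 0, with library II above III, and at 12033 and 14996 RPKM and 10531 and 11764 RPKM at day 7. Both rose (limma adjusted p = 0.0207 and 0.0112), but neither call held after background subtraction (0.136 and 0.0857) or without any 1 of the day 4 and day 7 libraries (0.104, 0.115, 0.143 and 0.181 for Ftl1, and 0.0621, 0.0683, 0.0960 and 0.113 for Fth1). Of 24 genes of the oxidative stress response 22 were tested, 13 higher and none lower (13 and 1 after background subtraction). Prdx1, a peroxiredoxin, went from 101 and 31.3 RPKM to 4943 and 6059 RPKM (83.4-fold, limma adjusted p = 1.81e-04), and Srxn1, the reductase that reactivates it, from 2.398 and 7.36 RPKM to 133 and 122 RPKM. Gstm1, a glutathione transferase, rose 18.2-fold.

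Antigen presentation genes rose in part. Of 14 MHC class II genes 7 were tested, with 6 higher and 1 lower (4 and 0 after background subtraction). H2-Ab1, the beta chain of I-A, was at 56.8 and 17.2 RPKM on day 0 and 666 and 730.3 RPKM on day 7 (18.9-fold, limma adjusted p = 0.00122), H2-Eb1, the beta chain of I-E, rose from 15.8 and 16.2 RPKM to 290.2 and 314 RPKM, and H2-Aa from 21.4 and 17.2 RPKM to 268 and 258 RPKM. The invariant chain Cd74 was already at 451 and 282 RPKM at day 0 and reached 1814 and 1932 RPKM. Its rise was called (limma adjusted p = 0.0290) but not after background subtraction (0.217) or without day 7 library III (0.108) or IV (0.127). The 1 member that fell was Ciita, the activator of class II genes, named here after its values were seen; it was at 3.23 and 6.61 RPKM and then 0.9297 and 0.305 RPKM (limma adjusted p = 0.0270, 0.765 after background subtraction, and 0.160, 0.0914 and 0.206 without day 0 library III, day 7 library III or day 7 library IV).

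All 18 genes of MHC class I and peptide loading were tested, with 10 higher and none lower (5 and 0 after background subtraction). Of all tested genes, 26.2% were higher and 23.5% lower (21.4% and 10% after background subtraction). B2m, the light chain of class I, rose 10.2-fold, from 277 and 101 RPKM to 1955 and 1914 RPKM (limma adjusted p = 0.00152), and H2-K1, a heavy chain, from 92.2 and 70.3 RPKM to 496 and 505 RPKM. Calr, the chaperone of newly made heavy chains, was at 298 and 346 RPKM and 379 and 509.6 RPKM and was not called (limma adjusted p = 0.454). Of 21 genes of costimulation and DC maturation only 7 were tested, with 3 higher and 1 lower (4 and 0 after background subtraction), and Cd80, Cd86, Cd40 and Ccr7 were under the floor. Cd274, the inhibitory ligand PD-L1, went from 6.81 and 0 RPKM to 43.3 and 47.6 RPKM and Cd200, another inhibitory ligand, from 3.400 and 2.32 RPKM to 42.3 and 30.2 RPKM (limma adjusted p = 0.00271 and 6.25e-04). Cd83, a marker of mature DC, was at 3.55 and 9.69 RPKM and 14.1 and 10.4 RPKM, and was not called (limma adjusted p = 0.195).

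Receptors for microbes and antibody rose in part. Of 9 Fc receptors and signalling chains 8 were tested and 6 rose, with none lower, also after background subtraction. Fcer1g, the common gamma chain, was at 292 and 86.7 RPKM on day 0 and 3358 and 3427 RPKM on day 7 (17.9-fold, limma adjusted p = 0.00108). Of 19 C-type lectins 11 were tested, with 6 higher and 1 lower (5 and 1 after background subtraction). Clec7a, the beta-glucan receptor Dectin-1, rose 24.5-fold, from 10.9 and 19.5 RPKM to 377 and 367 RPKM, and Clec4n, Dectin-2, had 0 and 1 reads on day 0 and 306 and 276 RPKM on day 7, a ratio of 228 (95% exact interval 40.9 to 9005). Of 26 Toll-like receptors and adaptors 18 were tested, with 7 higher and 1 lower (6 and 0 after background subtraction), among them Tlr13, a sensor of bacterial ribosomal RNA, which went from 6.95 and 11.1 RPKM to 83.5 and 67.3 RPKM.

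Chemokine ligands rose while several chemokine receptors fell. Of 21 ligands 13 were tested and 10 rose, with none lower (8 and 0 after background subtraction). Ccl3 and Ccl4, which attract monocytes and T cells, went from 4.03 and 5.501 RPKM to 207 and 185 RPKM and from 4.27 and 8.74 RPKM to 731 and 629 RPKM. Cxcl2, which attracts neutrophils through Cxcr2, rose 86.3-fold, from 2.32 and 7.13 RPKM to 497 and 319 RPKM (limma adjusted p = 4.05e-05). Of 20 chemoattractant receptors 10 were tested, with 4 higher and 3 lower (2 and 4 after background subtraction). C3ar1, the receptor for the complement fragment C3a, rose 63.1-fold, from 3.603 and 5.896 RPKM to 316 and 284 RPKM. Cxcr4, which holds immature cells in the marrow, was at 48.6 and 72.9 RPKM and then 16.7 and 25.8 RPKM and fell (limma adjusted p = 0.0164, but 0.167 and 0.0574 without day 7 library III or IV).

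Transcription factors and cytokine receptors moved in both directions. Of 31 listed factors 27 were tested, with 14 higher and 4 lower (9 and 3 after background subtraction). Id3, an inhibitor of E proteins that is high in some tissue macrophages, was at 3.25 and 6.65 RPKM on day 0 and 506 and 492 RPKM on day 7 (limma adjusted p = 1.91e-05), from 1 and 1 reads at day 0, a ratio of 115 (95% exact interval 31.7 to 946). Spi1, which codes for PU.1, rose 3.61-fold, from 92.9 and 47.5 RPKM to 245 and 262 RPKM (limma adjusted p = 0.00973), a call lost after background subtraction (0.0546) and without day 7 library III (0.0730) or IV (0.0909). Of 27 receptors for growth factors and cytokines 25 were tested, with 13 higher and 5 lower (12 and 3 after background subtraction). Csf2rb and Csf2rb2, the signalling chains for GM-CSF and interleukin 3, rose from 34.8 and 52.5 RPKM to 176 and 177 RPKM and from 5.36 and 9.604 RPKM to 131 and 137 RPKM. They are near copies of each other, so their split is uncertain, and the call of Csf2rb was lost with quantile normalization (limma adjusted p = 0.325).

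**Figure D4:**
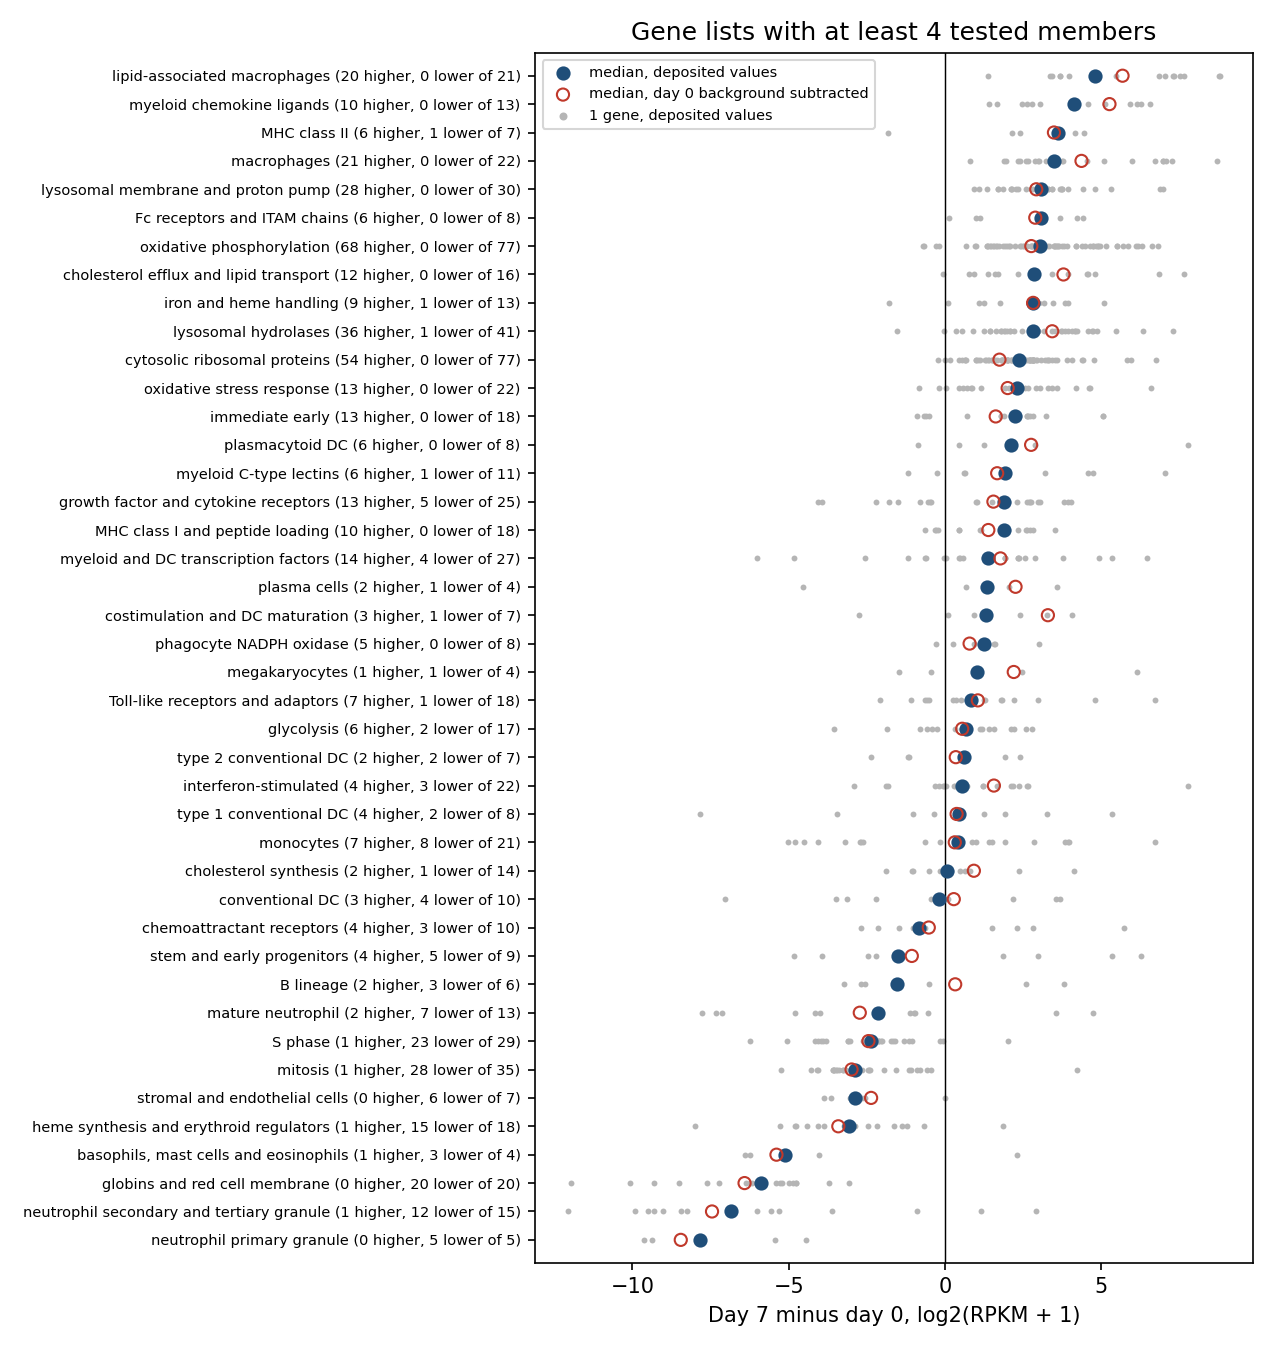
Difference between day 7 and day 0 on the log2(RPKM + 1) scale for the tested members of each list with at least 4 of them (grey points), with the median of the deposited values (filled) and after background subtraction (open). Medians run from -7.84 for primary granule genes to 4.81 for lipid-associated macrophage genes, and background subtraction moves the median of the B lineage list from -1.54 to 0.32.

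Many housekeeping genes of translation and respiration were called higher, but here the 2 day 0 libraries stood far apart. Of 83 cytosolic ribosomal protein genes 77 were tested, with 54 higher and none lower. After background subtraction only 17 were higher, a share near the 21.4% of all tested genes, and none was lower. Their median log2 difference was then 1.74, against 0.48 over all tested genes. With the level of sensory receptor genes as the background, 26 were higher, against 20.8% of all tested genes. The 83 genes took 2.805% and 0.737% of the reads in day 0 libraries II and III and 4.75% and 5.16% at day 7. Rplp1, a stalk protein, rose from 391 and 135 RPKM to 2401 and 2974 RPKM (limma adjusted p = 0.00164), while Rpl13, at 1525 and 187 RPKM and 1739.7 and 2016 RPKM, was not called (limma adjusted p = 0.121). Of 87 genes of oxidative phosphorylation 77 were tested, with 68 higher and none lower (43 and 0 after background subtraction). Cox8a, a cytochrome oxidase subunit, went from 62.5 and 11.6 RPKM to 1142 and 1453 RPKM (35.00-fold, limma adjusted p = 2.74e-04), and the complex I subunit Ndufb4 from 13.6 and 13.96 RPKM to 217 and 194 RPKM. These are short genes, for which a single read in day 0 library III was worth many RPKM.

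Large falls were also seen in genes outside the red cell and neutrophil lists. Zfp488, a zinc finger gene of the nervous system, stood at 4945 and 4399.7 RPKM on day 0 and 8.57 and 9.17 RPKM on day 7 (527-fold lower, limma adjusted p = 2.67e-05). Ap1s3, an adaptor subunit of vesicle transport, was at 703 and 509 RPKM and then 2.65 and 4.604 RPKM, and it alone accounted for most reads of the conventional DC list at day 0. Among 1458 sensory receptor genes, which blood cells are not known to use, 11 were tested and all 11 were lower at day 7 (9 after background subtraction). Their day 7 levels lay under the floor, so they passed it only through day 0 and their direction follows from the filter. Of these, Olfr856-ps1, Olfr613 and Vmn1r58 were at 2422 and 1945 RPKM, 809 and 493 RPKM and 539.8 and 324 RPKM at day 0, far above the pooled 3.28 and 4.51 RPKM of the other sensory receptor genes. Both day 0 libraries held these signals, and what produced them was not tested.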

How the data were processed

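The authors deposited RPKM per gene for 6 libraries, with symbols and exon lengths, per the file headers. Per the labels' protocols, cDNA was made from total RNA with the SMARTer v3 Ultra Low Input kit and tagged with NexteraXT. The submitters' processing notes name TopHat2 2.0.13, SAMtools 1.1 and the build mm9; for the counter, the annotation and strand, the answer is not given in the sources used here, and antisense partners cannot be separated. RPKM times length gave whole reads to within 6.88e-05 of a read, and library totals were read back from them.

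Group means of the 3 days were fitted to log2(RPKM + 1) with limma 3.58.1 in R 4.3.3 (trended eBayes, 3 residual and a median of 6.70 prior degrees of freedom), and day 7 minus day 0 was tested two-sided with Benjamini-Hochberg adjustment over 8047 genes. The added constant makes log2 differences understate changes of low genes; folds are ratios of mean RPKM. On simulated data for this comparison, 44 of 100 genes changed 4-fold and 99 of 100 changed 16-fold were called. All changed genes had a mean of at least 50 RPKM. Of 7847 unchanged genes, 77 were also called. Set against 44 and 99 correct calls, these 77 were a larger share of calls than the Benjamini-Hochberg adjustment was set to allow. The simulated libraries of all days shared the same means, apart from the changed genes, and the same spread between replicates before counting error. No background particular to day 0 was simulated. Whether their spread matches that of day 0 was not tested. The recovery may therefore not describe the real calls. Intervals are exact (Clopper-Pearson, 95%), for counting error only. Python 3.11.15, pandas 2.3.3 and matplotlib 3.10.9 were used.

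Genes named were the 15 largest rises and falls among called genes (without predicted genes, clones and small RNAs), up to 4 members of each of 44 lists by level and 3 by adjusted p, and marker genes; a few of these are not reported here. The comparison and lists were chosen with earlier results of these data known. Of 866 list entries 863 were found. Tests across pseudocounts, filters, scalings, depth, left-out libraries and background levels are given in the closing section. Promoters come from RefSeq (GRCm38.p6); mm9 coordinates were not used.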

Additional observations from a re-analysis of the deposited data

How the results depend on the processing

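Against 2105 genes higher and 1893 lower, the higher count moved to 1230 with a floor of 10 reads (3038 genes tested), 1261 with quantile normalization, 1262 with libraries thinned to the smallest and 1046 with voom on recovered reads. The lower count moved to 5649 with RPKM of at least 1 in 2 libraries, 5016 with no filter, 548 with a floor of 10 reads and 1153 after thinning, and to 808 and 909 after subtraction of the pooled family or sensory receptor level and 319 with a mean of at least 20 RPKM; these 3 settings were chosen after seeing the data. The last setting shifted the median of tested genes to 1.46 and the share of calls that were higher from 52.7% to 82.8%; subtraction of the family level gave 68.0%, subtraction of the sensory receptor level 64.8%, a floor of 10 reads 69.2%, no filter 29.1%, RPKM of at least 1 in 2 libraries 27.9% and voom 41.7%. Leaving out 1 library gave 1120 to 2297 higher and 822 to 2264 lower genes, lowest without day 7 library IV for both (1228 and 1047 without day 7 library III), and the cause was not tested. The pseudocounts, median ratio scaling, library weights and the fit without day 4 kept both counts within 1.5 times. Of 129 called genes named, no direction reversed under the settings in which they were tested (109 had a value with a floor of 10 reads and 115 with a mean of at least 20 RPKM); quantile normalization lost 12 calls, family background subtraction 11, and leaving out day 7 library III or IV 12 and 11. Among calls lost under 1 setting alone, Cd48, H2-K1 and Zfp36 went with quantile normalization (limma adjusted p = 0.0544, 0.0561 and 0.0913) and Blnk and Msmo1 with thinning (0.0527 and 0.0537). No paired analysis was possible because the day 0 libraries (II, III) and day 7 libraries (III, IV) share only 1 number. The low depth of day 0 limits what can be called: 13714 genes lay under the floor and were not tested, apart from those that the settings with no filter or with RPKM of at least 1 took in.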

Other observations

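Genes of rapid response to stimulation were also high at day 7. Of 19 immediate early genes 18 were tested, with 13 higher and none lower (10 and 1 after background subtraction). Atf3, a stress-induced factor, was at 8.14 and 2.77 RPKM on day 0 and 218 and 169 RPKM on day 7 (35.5-fold, limma adjusted p = 4.99e-04), and Zfp36, which speeds the decay of cytokine mRNAs, rose 6.16-fold, from 128 and 126 RPKM to 829 and 734 RPKM. Of 32 interferon-stimulated genes 22 were tested, with 4 higher and 3 lower (3 and 1 after background subtraction), below the 26.2% and 23.5% of all tested genes. Bst2, tetherin, an interferon-induced protein that is also a plasmacytoid DC marker, stood at 0 and 8.27 RPKM and then 613 and 714 RPKM. With 0 and 1 reads at day 0 its ratio was 241 (95% exact interval 43.2 to 9509.9).

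Of 19 glycolysis genes 17 were tested, with 6 higher and 2 lower (2 and 1 after background subtraction), against 26.2% and 23.5% of all tested genes (21.4% and 10%). Slc2a3, a glucose transporter abundant in neutrophils, fell 15.1-fold, from 31.9 and 34.9 RPKM to 0.916 and 3.52 RPKM. All 8 genes of the phagocyte NADPH oxidase were tested, with 5 higher and none lower (2 and 0 after background subtraction). The shares of all tested genes were again 26.2% and 23.5% (21.4% and 10%). Of 8 listed plasma cell genes 4 were tested, with 2 higher and 1 lower, also after background subtraction: Jchain, which joins antibody chains, fell from 38.3 and 30.1 RPKM to 1.296 and 0 RPKM, while Sdc1, syndecan 1, rose from 3.64 and 3.72 RPKM to 49.2 and 60.7 RPKM (limma adjusted p = 1.92e-04 and 2.29e-04). Of 4 tested megakaryocyte genes of 17, 1 was higher and 1 lower (1 and 0 after background subtraction).

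Several of the largest rises belong to no list. Tmem37, a membrane protein, had no read at day 0 and 316 and 378 RPKM at day 7, at least 18.6-fold higher (limma adjusted p = 7.24e-06). Rpph1, the RNA of ribonuclease P, had no read at day 0 and stood at 255 and 740.4 RPKM at day 7, at least 7.96-fold higher. Rnf128, a ubiquitin ligase, and Npy, neuropeptide Y, had 1 and 0 and 1 and 0 reads at day 0 and 469 and 416 RPKM and 437 and 492 RPKM at day 7, ratios of 592 (95% exact interval 106 to 23378) and 120.3 (95% exact interval 21.6 to 4751). Cstb, an inhibitor of cathepsins, was at 20.6 and 0 RPKM and then 1926 and 1965 RPKM, with 4 and 0 reads at day 0.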
